A study of Mus musculus with 8 samples.

Results

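The unfolded protein response (UPR) sensors described here are the genes of the 3 endoplasmic reticulum (ER) stress sensors and of the proteins that act directly on or below them. The 8 members were taken by symbol: Ern1 (IRE1), its substrate Xbp1, Eif2ak3 (PERK), its substrate Eif2s1 (eIF2α), Atf6, Atf6b, and the proteases Mbtps1 and Mbtps2 that release ATF6. All 8 were found among the 54427 rows of the table, and all 8 were above 0 in every library. They were measured in primary acinar cells, the enzyme-secreting cells of the pancreas, freshly isolated with collagenase from mice of WT genotype; strain and age are not given in the labels used here. The 4 AP libraries come from cells injured with 1 µM cholecystokinin octapeptide (CCK), a secretion-driving hormone that damages acinar cells in excess, over 6 h. The 4 AP_OCA libraries come from cells given the same injury with OCA, the common short name of obeticholic acid, which activates the nuclear receptor FXR; for it the labels state 2.5 µM. The treatment text is identical for all samples, so that AP cells received no OCA is known only from the titles. All groups carry the CCK injury, and cells without it are not analysed here.

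As background, the ER folds the digestive enzymes that acinar cells make in bulk, and the UPR matches folding capacity to that load. IRE1 is a membrane kinase and RNase that cuts Xbp1 mRNA so that a potent transcription factor can be translated; PERK is a membrane kinase that phosphorylates eIF2α and so slows translation while favouring ATF4. ATF6 travels to the Golgi, where site-1 and site-2 proteases cut it and free a transcription factor for chaperone genes. These steps are mostly changes of protein or of RNA processing. The values here are gene-level RNA values, so they show how much transcript of each sensor there was and not how active it was.

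The RNA step that IRE1 carries out is shown because the table sums over it. In the full-length Xbp1 transcript of the GENCODE annotation (GRCm38, the genome of the mm10 build), 1 pair of IRE1-type sites 26 bases apart was found in the coding sequence, inside exon 4 of 5, at chr11:5524279-5524304 on the plus strand. The letters below run 5′ to 3′ from chr11:5524267-5524316, with the 26 bases between both cuts in capitals.
Xbp1: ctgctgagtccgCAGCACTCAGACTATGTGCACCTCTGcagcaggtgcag
With these bases the open reading frame holds 267 codons, and without them 371. Both forms count toward the single Xbp1 value in every library, so splicing of Xbp1 was not measured.

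A second sequence is shown for Eif2ak3, the member that fell. Of the 250 bases before the start of each gene in the RefSeq promoter table (GRCm38.p6), 7 of 8 members had an entry; Atf6 had none. The Eif2ak3 window lies at chr6:70844265-70844514 on the plus strand, and each CCAAT, read on either strand, is in capitals.
Eif2ak3: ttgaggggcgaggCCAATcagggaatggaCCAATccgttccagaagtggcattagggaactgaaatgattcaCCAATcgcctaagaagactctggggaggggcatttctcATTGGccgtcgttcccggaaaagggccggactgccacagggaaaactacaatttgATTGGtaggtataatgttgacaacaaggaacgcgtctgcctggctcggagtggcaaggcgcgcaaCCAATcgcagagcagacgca
It holds CCAAT 6 times, 4 as read and 2 on the other strand, and at least as many were found in 19 of 32851 promoter windows (0.0578%); any CCAAT was found in 33.8%. Among the other 6 members with an entry, Atf6b held 1 CCAAT and the rest none. CCAAT is the letter pattern bound by NF-Y, a widespread promoter factor; this pattern was counted after the letters had been seen, and a match is not evidence of binding. UPR-type patterns, 3 in all, were searched on both strands in the same windows. The ER stress element, CCAAT then any 9 bases then CCACG, was in 0 of 7 member windows and in 0.113% of all windows. The related ATTGG, any 1 base, CCACG was in 0 of 7 and in 0.0304% of all, and TGACGTG was in 0 of 7 and in 1.65% of all.

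The deposited values are log2 values that had been quantile normalised, which gives all libraries 1 shared distribution. They were returned to a linear scale and expressed per 1000000 (CPM), so a CPM value is a place in that shared distribution and not a share of reads; the read depth of each library is unknown. The 7 libraries other than AP_OCA replicate 2 held 15394 to 16640 genes above 0, and AP_OCA replicate 2 held 21010. AP_OCA replicate 2 also had finer steps near 0, with 65 distinct values above 0 and up to 1 CPM, against 9 to 14 in the other 7. The part of these steps in its higher gene count was not tested. Across tested genes AP_OCA replicate 2 correlated with the others at 0.56 to 0.64, while the highest correlation of each other library with another was 0.94 to 0.98. It also carried 14431 CPM of 12 B and plasma cell markers, against 70.3 to 139 in the other 7, and 9263 CPM of this came from Cd74. Its 8 islet markers summed to 8.95 CPM, against 504 to 2138. AP_OCA replicate 2 is shown apart, a split chosen with earlier results of these data known, and the fits are given with and without it. The 12 acinar markers were all present and summed to 461120 to 511562 CPM in the 7 libraries and to 448258 in AP_OCA replicate 2. The labels do not say that the replicates are separate animals or cultures, so p-values measure the spread between these samples only.

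Of the 8 members, Eif2ak3 fell with OCA, and 7 did not pass the test. In the 7 libraries 6 of 8 members had lower fitted values in AP_OCA and 2 had higher ones, Eif2s1 and Atf6. Of all genes tested, 50.0% had lower fitted values in AP_OCA in the 7 libraries and 50.9% in the 8. Counts by direction in the lists below are to be read beside these shares. The median log2 fold change of the members was -0.38, against -0.00009 over all genes tested. The test was limma on log2 of CPM plus 1 over 10894 genes whose mean reached 1 CPM, with p-values adjusted over all of them by the Benjamini-Hochberg method and a threshold of 0.05. It called 2.44% of all genes, 1.59% lower and 0.854% higher, and 1 of 8 members, lower. The AP and AP_OCA values did not overlap in 4 of 8 members that were lower and 1 that was higher, where 12.1% of all genes were separated downward and 11.1% upward. With all 8 libraries 0 of 8 members passed, as did 0 of 11311 genes (0%, smallest adjusted p = 0.199 by limma). At an unadjusted p under 0.05, 2 of 8 members were lower and 0 higher in that fit, against 8.87% and 7.31% of all genes (1830 genes in all). Groups of 4 did not overlap in 3 of 8 members that were lower and 0 that were higher, against 8.57% and 6.75%. With limma quality weights per library 1 of 8 members and 1052 genes passed over the 8 libraries. Because whole cell populations were sequenced, fewer cells of a type and less RNA per cell cannot be told apart.

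**Figure D1:**
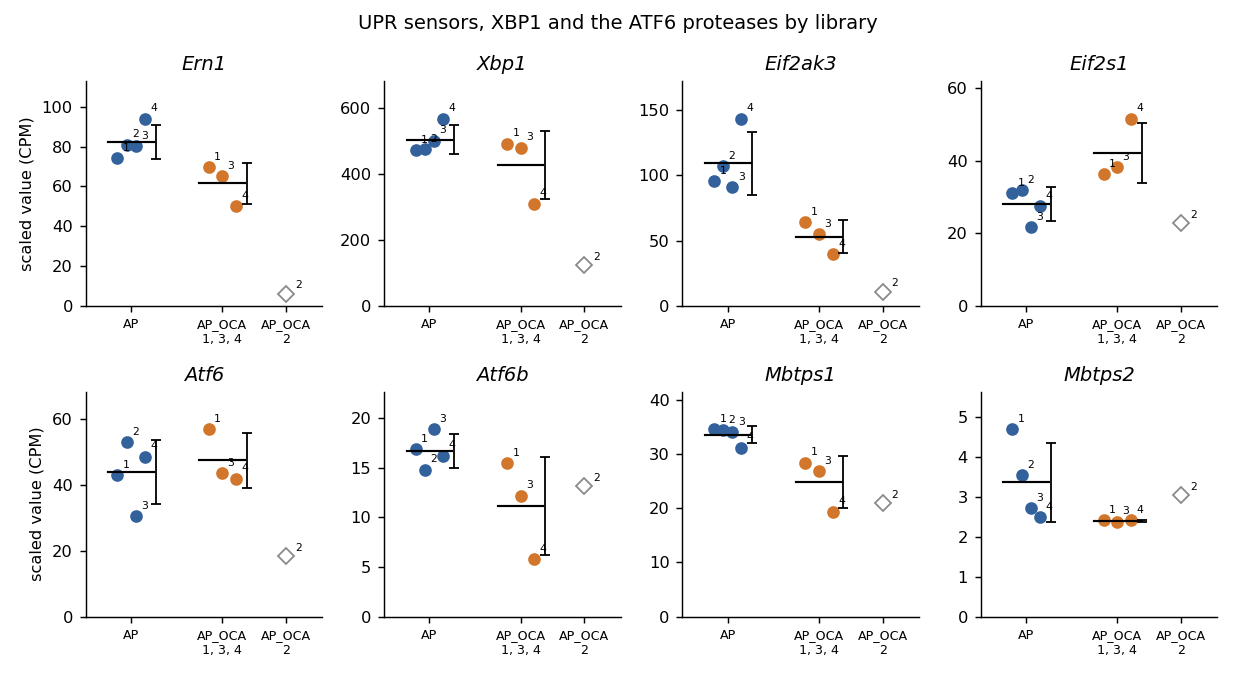
Scaled value (CPM, linear axes from 0) of each member in every library, with the replicate number beside each point; black bars are the mean and SD of AP (n = 4) and of AP_OCA replicates 1, 3 and 4 (n = 3), and the open diamond is AP_OCA replicate 2. Eif2ak3 lay at 39.6 to 64.2 CPM in AP_OCA replicates 1, 3 and 4 and at 90.8 to 143.6 in AP, while the values of Xbp1 and Atf6 overlapped.

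Eif2ak3 encodes PERK and lies on chromosome 6 (70844515 to 70905245). It stood at 95.5, 107.0, 90.8 and 143.6 CPM in AP replicates 1 to 4 and at 64.2, 55.3 and 39.6 in AP_OCA replicates 1, 3 and 4. All 3 AP_OCA values lay below the lowest AP value, and AP replicate 4 was the highest. The mean was 109 ± 23.9 CPM in AP (SD, n = 4) and 53.0 ± 12.4 in AP_OCA (n = 3), 2.06-fold lower. Eif2ak3 fell by 1.03 ± 0.21 on the log2 scale (SE, adjusted p = 0.0310 by limma), and it ranked 76 of 10894 by p. The call ended when AP replicate 1, 2, 3 or 4 or AP_OCA replicate 3 was left out (adjusted p = 0.0577 to 0.101), with changes of -1.11 to -0.89. It held without AP_OCA replicate 1 (-1.18, adjusted p = 0.0164) and without AP_OCA replicate 4 (-0.84, adjusted p = 0.0439). With each library's trend over transcript length and GC content removed the change was -0.76 and did not pass (adjusted p = 0.0590), nor did it without a variance trend (adjusted p = 0.0748) or without a filter on low values (0.186). AP_OCA replicate 2 stood at 10.9 CPM, 3.64-fold below the lowest other library. Over all 8 libraries the log2 fold change was -1.57 ± 0.50 (adjusted p = 0.262).

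Eif2s1, on chromosome 12 (78861819 to 78887010), encodes the α subunit of the initiation factor eIF2, which PERK phosphorylates. It stood at 31.0, 32.0, 21.8 and 27.6 CPM in AP replicates 1 to 4 and at 36.4, 38.2 and 51.6 in AP_OCA replicates 1, 3 and 4. These AP_OCA values lay above all AP values, with AP replicate 3 the lowest and AP_OCA replicate 4 the highest. The log2 fold change of 0.56 ± 0.20 did not pass (adjusted p = 0.104 by limma). AP_OCA replicate 2, at 22.7 CPM, lay within the AP range, and over 8 libraries the change was 0.35 ± 0.28. With the length and GC trend removed it was 0.33 in the 7 libraries. Kinase and substrate thus lay on opposite sides of 0, and only the kinase passed.

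Ern1, on chromosome 11 (106394650 to 106487852, minus strand), encodes IRE1α. It stood at 74.1, 81.0, 80.2 and 94.1 CPM in AP replicates 1 to 4 and at 69.6, 65.2 and 50.0 in AP_OCA replicates 1, 3 and 4. The groups did not overlap, but the distance between the nearest libraries, 74.1 and 69.6 CPM, was smaller than the SD within either group (8.43 and 10.3). The log2 fold change of -0.42 ± 0.18 did not pass (adjusted p = 0.153 by limma), and it was -0.28 without AP_OCA replicate 4 and -0.51 with the length and GC trend removed. In AP_OCA replicate 2 Ern1 was at 6.18 CPM, 8.09-fold below the lowest other library, the widest such gap among the 8 members, and the 8-library change was -1.20 ± 0.66.

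Xbp1, on chromosome 11 (5520659 to 5525893), encodes the transcription factor made from the mRNA that IRE1 cuts. It stood at 473, 477, 502 and 569 CPM in AP and at 493, 481 and 310 in AP_OCA replicates 1, 3 and 4. AP_OCA replicates 1 and 3 lay inside the AP range and AP_OCA replicate 4 lay below it. The log2 fold change of -0.27 ± 0.19 did not pass (adjusted p = 0.392 by limma) and was -0.05 without AP_OCA replicate 4 and -0.41 with the length and GC trend removed. AP_OCA replicate 2 stood at 124 CPM, 2.50-fold below the lowest other library, and the 8-library change was -0.70 ± 0.44. Xbp1 ranked 85 to 101 among all genes in the AP libraries and 354 in AP_OCA replicate 2.

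Atf6, on chromosome 1 (170704674 to 170867771, minus strand), encodes the sensor that becomes a transcription factor. It stood at 43.0, 52.9, 30.6 and 48.6 CPM in AP and at 56.9, 43.5 and 41.9 in AP_OCA replicates 1, 3 and 4. The groups overlapped over most of their range, and AP replicate 3 was the lowest of the 7. The log2 fold change was 0.13 ± 0.21 (adjusted p = 0.730 by limma); it was 0.21 with the length and GC trend removed, -0.03 without AP replicate 3, -0.007 without AP_OCA replicate 1, and -0.20 ± 0.35 over 8 libraries, with AP_OCA replicate 2 at 18.3 CPM. No direction can be given for Atf6.

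Atf6b, on chromosome 17 (34647146 to 34655074), encodes the related protein ATF6β. It stood at 16.9, 14.8, 18.9 and 16.2 CPM in AP and at 15.5, 12.2 and 5.82 in AP_OCA replicates 1, 3 and 4. AP_OCA replicate 1 lay inside the AP range and AP_OCA replicate 4 well below every other library. The log2 fold change of -0.63 ± 0.26 did not pass (adjusted p = 0.157 by limma), and it was -0.26 without AP_OCA replicate 4 and -0.27 with the length and GC trend removed. AP_OCA replicate 2, at 13.1 CPM, lay between AP_OCA replicates 1 and 3, and the 8-library change was -0.55 ± 0.29.

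Mbtps1 (chromosome 8, 119508156 to 119558735, minus strand) encodes site-1 protease, which makes the first cut in ATF6. It stood at 34.6, 34.4, 34.1 and 31.2 CPM in AP, at 28.4, 26.9 and 19.4 in AP_OCA replicates 1, 3 and 4, and at 20.9 in AP_OCA replicate 2. All 4 AP_OCA values lay below all 4 AP values. The log2 fold change did not pass with 7 libraries (-0.43 ± 0.18, adjusted p = 0.156 by limma) or with 8 (-0.49 ± 0.20, adjusted p = 0.293), and it was -0.14 in both with the length and GC trend removed. Mbtps2 (chromosome X, 157535371 to 157598715, minus strand) encodes site-2 protease, which makes the second cut within the membrane. It stood at 4.69, 3.54, 2.72 and 2.49 CPM in AP, at 2.40, 2.38 and 2.41 in AP_OCA replicates 1, 3 and 4, and at 3.04 in AP_OCA replicate 2. The 3 values lay just below the AP range, in which AP replicates 3 and 4 were close to them, and the change of -0.33 ± 0.25 did not pass (adjusted p = 0.413 by limma). It was -0.54 with the length and GC trend removed and -0.27 ± 0.24 over 8 libraries. Its values stood 23 to 67 tied steps above 0 in the 7 libraries, which, if each step is 1 read, is the thinnest count among the members. In AP_OCA replicate 2, where the steps were finer, its value stood 171 steps above 0.

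**Figure D2:**
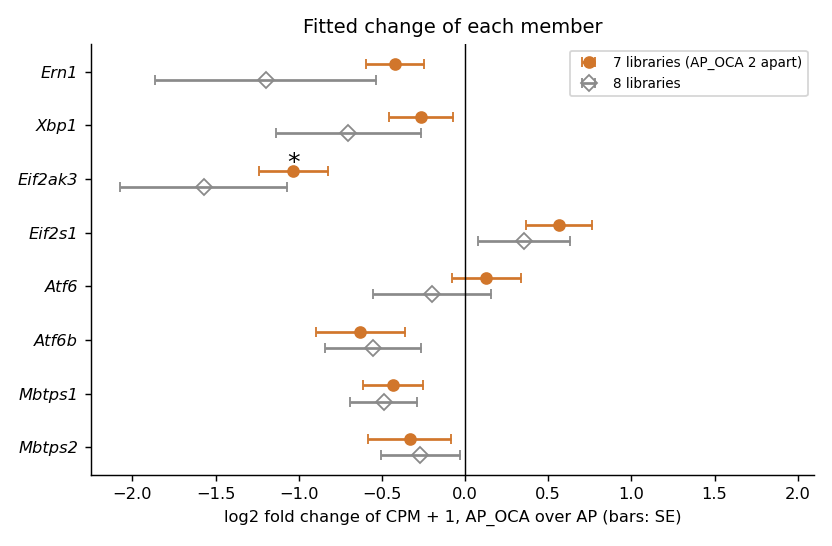
Fitted log2 fold change of CPM plus 1, AP_OCA over AP, with its SE, for each member in the 7 libraries without AP_OCA replicate 2 (circles) and in all 8 (diamonds); the asterisk marks the 1 adjusted p under 0.05. Adding AP_OCA replicate 2 moved Ern1 from -0.42 to -1.20 and Eif2ak3 from -1.03 to -1.57 and widened their SE.

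AP_OCA replicates 2 and 4 set much of the spread in these genes. In AP_OCA replicate 2, Ern1, Eif2ak3, Xbp1 and Atf6 lay below every other library, by 8.09-, 3.64-, 2.50- and 1.67-fold, while Atf6b, Eif2s1, Mbtps1 and Mbtps2 lay within the range of the other 7. In the same library 11 of 12 B and plasma cell markers stood at over 2 times the highest value of the other 7. So did 8 of 8 T cell markers and 6 of 8 macrophage markers. Cd74, at 9263 CPM there against 20.3 to 40.1, was the most abundant. The remaining B and plasma cell marker, Sdc1, was over 2-fold below the lowest of the 7, at 4.39 CPM against 46.03 to 89.14. Of the macrophage markers, Cd14 also lay below the other 7, at 27.6 CPM against 43.7 to 61.6. Lyz2 lay above them, at 284 CPM against at most 71.2. T cell markers summed to 405 CPM there and to 1.18 to 2.54 in the 7, where Cd3e and Cd3g were at 0. Of the duct markers 5 of 8, and of the islet markers 8 of 8, stood over 2-fold under the lowest of the 7, with Krt19 at 7.40 CPM there against 83.5 to 198 and Ins2 at 6.61 against 296 to 1329. Their part in the low sensor values was not tested. AP_OCA replicate 4 had the lowest value of the 7 libraries in Xbp1, Ern1, Eif2ak3, Atf6b and Mbtps1 and the highest in Eif2s1.

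Per length of transcript, Xbp1 was by far the most abundant member in AP. Divided by the longest coding transcript of each gene, Xbp1 stood at 237 ± 20.9 CPM per kb (SD, n = 4), Eif2ak3 at 24.2 ± 5.30 and Ern1 at 11.9 ± 1.21. Their ranges over the 4 libraries did not overlap. Eif2s1 (8.25 ± 1.35), Mbtps1 (7.74 ± 0.366), Atf6b (6.51 ± 0.660) and Atf6 (6.04 ± 1.34) followed. The ranges of each neighbouring pair of these 4 overlapped, so their order is not set beyond their spread. Mbtps2 was lowest, at 0.700 ± 0.208. The order of both membrane kinases depended on the length used: with the median coding transcript, Ern1 (62.9 ± 6.44) lay above Eif2ak3 (40.1 ± 8.80), because most Ern1 transcripts in the annotation are short. With the longest transcript and in AP_OCA replicates 1, 3 and 4, Eif2ak3 stood at 11.8 ± 2.76 and Ern1 at 8.87 ± 1.48 CPM per kb.

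**Figure D3:**
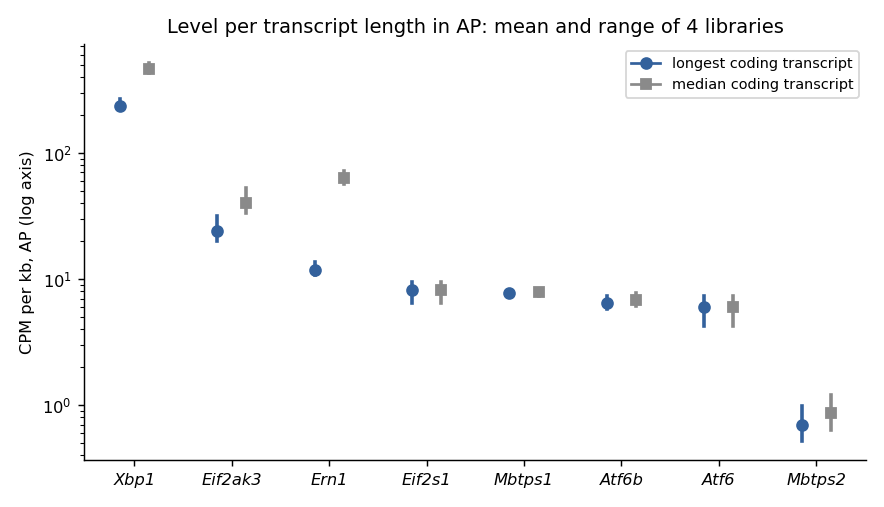
Level in AP in CPM per kb of transcript (log axis), mean and range of the 4 libraries, using the longest (circles) or the median (squares) coding transcript of each gene. Xbp1 lies highest and Mbtps2 lowest with either length, and the order of Ern1 and Eif2ak3 changes between them.

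Ratios within a library, chosen after the values had been seen and therefore given without a test, describe how the levels of pairs of members compared. Xbp1 to Ern1 was 6.14 ± 0.224 in AP (SD, n = 4) and 6.89 ± 0.608 in AP_OCA replicates 1, 3 and 4, with overlapping values. These were also the 2 members with the most similar profiles over the 7 libraries, differing by a root mean square of 0.11 in centred log2 values. Eif2ak3 to Atf6 ran from 2.02 to 2.97 in AP and from 0.945 to 1.27 in those 3 AP_OCA libraries. Eif2ak3 to Ern1 ran from 1.13 to 1.53 in AP and from 0.793 to 0.923 in AP_OCA, so the values for PERK were lower relative to those for IRE1 as well. Hspa5, the chaperone BiP that binds the lumenal side of the sensors, stood at 5.66 to 9.68 times Eif2ak3 in AP and at 29.5 to 36.8 times in AP_OCA. In AP_OCA replicate 2 the ratio of Xbp1 to Ern1 was 20.1 and that of Eif2ak3 to Ern1 was 1.76, both above all other libraries.

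**Figure D4:**
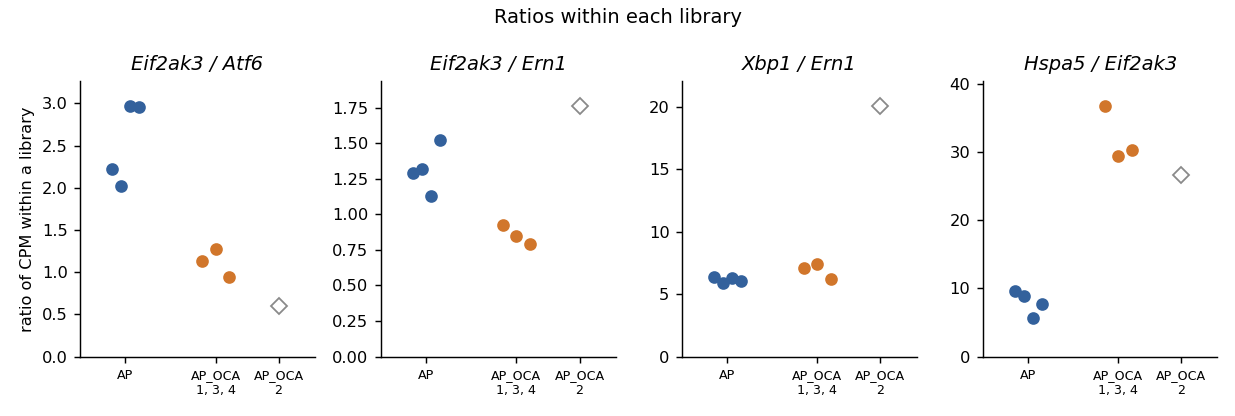
Ratios of CPM values within each library (linear axes from 0) for AP (4 points), AP_OCA replicates 1, 3 and 4 (3 points) and AP_OCA replicate 2 (diamond). Eif2ak3 relative to Atf6 and to Ern1 is lower, and Hspa5 relative to Eif2ak3 higher, in the 3 AP_OCA libraries than in any AP library, whereas Xbp1 relative to Ern1 overlaps.

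Profiles of other genes were compared with those of Xbp1 and of each sensor over the 7 libraries, as the root mean square difference between log2 values centred on their mean, among 6678 genes whose mean reached 5 CPM. Nearest to Eif2ak3 were Eif4g1, the scaffold of the cap-binding translation factor (0.13), Scaf4 (0.13) and Eps8l2 (0.14), where the median over all genes was 0.61. Eif4g1 stood at 320 to 374 CPM in AP and at 132 to 220 in AP_OCA. Nearest to Ern1 were Taf4, a subunit of the general factor TFIID (0.05), Sympk, of the mRNA 3′ end machinery (0.06), and Cybc1 (0.07). Nearest to Xbp1 were Arnt, a partner of bHLH-PAS factors (0.06), Atp13a1 (0.07) and the TGF-β receptor gene Tgfbr2 (0.08). Nearest to Atf6 were Luc7l2 (0.09), the actin-binding Twf1 (0.10) and the HSP110-family chaperone Hspa4 (0.10). These are descriptions over 7 libraries that share the group difference and the normalisation.

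Among 14 genes that bind the sensors or carry IRE1 and PERK signals, 13 were tested, 2 fell and 0 rose, where 1.59% of all genes fell and 0.854% rose. Their median log2 fold change was 0.04, against -0.00009 over all genes. Those that fell were Map3k5, the kinase ASK1 that acts below IRE1 and TRAF2, and Ptpn1, the ER-bound phosphatase PTP1B. Map3k5 stood at 142, 168, 155 and 308 CPM in AP replicates 1 to 4 and at 70.3, 87.3 and 62.0 in AP_OCA replicates 1, 3 and 4, with AP replicate 4 far above the rest. It fell by 1.33 ± 0.25 (adjusted p = 0.0271 by limma), and it still passed in 1 of 7 fits with a further library left out, that without AP_OCA replicate 1. Ptpn1 fell by 0.95 ± 0.20 (adjusted p = 0.0352), from 31.9 ± 3.57 to 16.3 ± 4.32 CPM; it passed in 1 of those 7 fits, again without AP_OCA replicate 1, and not with the length and GC trend removed (-0.56). Ptpn1 was at 78.3 CPM in AP_OCA replicate 2, above all other libraries. Both calls ended over 8 libraries, where Map3k5 was at -1.85 ± 0.51 (adjusted p = 0.260 by limma), Ptpn1 at -0.39 ± 0.50 (adjusted p = 0.684) and the list median at 0.08. The other 11 did not pass, among them Hspa5 (0.98 ± 0.28, adjusted p = 0.0665), which was higher in these 3 AP_OCA libraries than in any AP library and was at 0.35 ± 0.61 over 8 libraries. Ern2, the gene of IRE1β, was at 0 in all 8 libraries.

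Transcripts made under XBP1 and ATF6 had mostly higher fitted values in AP_OCA in the 7 libraries. Of 24 tested targets 2 rose, 0 fell and 22 did not pass, where 0.854% of all genes rose and 1.59% fell. In 21 the log2 fold change was positive, where 50.0% of all genes were negative. The median was 0.37, against -0.00009 over all genes. Medians over all genes also differed with GC content. The median was 0.27 in the fifth of tested genes with the lowest GC content and -0.23 in that with the highest. A median of the targets with this trend removed was not computed. In 12 of 24 all 3 AP_OCA values lay above all AP values and in 0 below them, where 11.1% and 12.1% of all genes were so separated. Hsp90b1, the ER chaperone GRP94, rose by 2.23 ± 0.41 (adjusted p = 0.0403 by limma), and the ER stress protein gene Manf by 1.45 ± 0.18 (adjusted p = 0.00447). Manf passed in each of 7 fits with a further library left out and Hsp90b1 in 2, those without AP replicate 3 and without AP_OCA replicate 1. With the length and GC trend removed Manf was at 1.08 (adjusted p = 0.00660 by limma) and Hsp90b1 at 1.97 (adjusted p = 0.0357). Dnajb9 (0.04 ± 0.17) and Edem1 (0.05 ± 0.16), usual readouts of spliced XBP1, did not pass and overlapped between groups. These 2 do not stand for the list. Dnajc3 (0.86 ± 0.24), Sel1l (0.58 ± 0.17) and Dnajb11 (0.37 ± 0.16) did not pass either but were among the 12 separated upward. With all 8 libraries 0 of 24 passed, 15 were positive, 6 were separated upward (6.75% of all genes) and the median was 0.25, with Hspa5 at 291 CPM in AP_OCA replicate 2 against 513 to 2362 in the others. Hsp90b1 was then at 2.24 ± 0.40 and Manf at 1.30 ± 0.24 (both adjusted p = 0.260 by limma). Of the 5 genes for ligating cut Xbp1 mRNA none passed, all 5 were positive (median 0.48), and Rtraf, a subunit of the tRNA ligase complex, had the lowest p (0.81 ± 0.23, adjusted p = 0.0631); over 8 libraries all 5 were again positive (median 0.67) and none passed.

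Substrates of a second IRE1 activity, decay of other ER-bound mRNAs, gave no call and are set beside markers of other cell types. None of 6 tested passed, 5 were negative, and the median was -0.41; Col6a1, a collagen gene, had the lowest p (-1.11 ± 0.33, adjusted p = 0.0772 by limma). Over 8 libraries none passed, 4 were negative and the median was -0.46, with Sparc at 0.12 in place of -0.39. Col6a1, Pdgfrb and Sparc are also expressed by stellate cells and fibroblasts. The 10 markers of those cells summed to 184 to 247 CPM in AP and to 116 to 173 in AP_OCA replicates 1, 3 and 4, with 1 of 10 lower by limma and none at 0 in all 7; Col3a1 (68.2 to 108 against 32.5 to 58.7 CPM) and Dcn (17.1 to 43.4 against 37.6 to 48.1) led them. The 8 endothelial markers summed to 100.3 to 127.8 CPM and to 35.5 to 85.8 in the same order, with 1 of 7 tested lower, Plvap (37.8 to 51.3 against 9.21 to 37.8 CPM) and Eng (23.4 to 26.3 against 8.35 to 15.1) leading. Duct markers summed to 273 to 338 CPM and to 374 to 469, with 0 of 6 passing. Macrophage (93.1 to 172.2 against 103.5 to 122.1 CPM), neutrophil (29.4 to 61.5 against 11.9 to 70.2) and islet (504 to 2138 against 1233 to 1728) sums overlapped between groups; 1 of 5 tested neutrophil markers was lower by limma, and 0 of 8 macrophage and 0 of 8 islet markers passed. Over all genes 1.59% were called lower and 0.854% higher. The part of these cell types in the values of the substrates or of the sensors was not tested. Bloc1s1, a widely used substrate of this decay, was not tested, having at most 0.225 CPM in any library.

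Below PERK, the genes of translation control and of ATF4 did not move as 1 group. Of the 7 other eIF2 and eIF2B subunits none passed and all 7 were positive (median 0.28); Eif2s2, the β subunit, had the lowest p (1.05 ± 0.35, adjusted p = 0.107 by limma), with AP replicate 3 at 29.7 CPM against 60.4 to 92.7 in the other AP libraries. Over 8 libraries 5 of 7 were positive and the median was 0.059. Of 8 genes for other eIF2α kinases and for its phosphatase none passed (median -0.22), and Ppp1r15b, the constitutive regulatory subunit of the phosphatase, had the lowest p (-0.40 ± 0.16, adjusted p = 0.143); over 8 libraries the median was -0.10 and none passed. Of 10 ATF4-pathway genes 1 rose, 1 fell and 8 did not pass, where 0.854% of all genes rose and 1.59% fell. Their median was -0.28, against -0.00009 over all genes. Ddit3, the transcription factor CHOP, stood at 13.0, 16.5, 16.4 and 19.2 CPM in AP and at 41.1, 27.4 and 39.3 in AP_OCA replicates 1, 3 and 4, and rose by 1.08 ± 0.20 (adjusted p = 0.0271). Chac1, which breaks down glutathione, fell by 1.19 ± 0.20 (adjusted p = 0.0241). With a further library left out Ddit3 passed in 2 of 7 fits (without AP_OCA replicate 1 or 4) and Chac1 in 3 (without AP replicate 4 or AP_OCA replicate 1 or 4). Both calls ended over 8 libraries, where 0 of 10 passed, 1 was positive and the median was -1.03. Ddit3, at 20.7 CPM in AP_OCA replicate 2, was then at 0.90 ± 0.26 (adjusted p = 0.260 by limma), and Chac1, at 115 CPM there against 868 to 3190 in the others, at -1.99 ± 0.71 (adjusted p = 0.265). Atf4 itself had lower values in AP_OCA replicates 1, 3 and 4 (388 ± 83.9 CPM, n = 3) than in AP (479 ± 22.2, n = 4) without passing (-0.33 ± 0.18, adjusted p = 0.270), and was at -0.78 ± 0.44 over 8 libraries.

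Genes of other proteins that site-1 and site-2 proteases cut, and of proteins that control their transport to the Golgi, gave no call. Of 11 genes 9 were tested, 0 passed, 6 were negative and the median was -0.45. Srebf2, the sterol regulator SREBP2, came nearest (-0.81 ± 0.21, adjusted p = 0.0521 by limma). It stood at 45.7 to 49.0 CPM in AP and at 32.6, 31.7 and 17.9 in AP_OCA replicates 1, 3 and 4, so the groups did not overlap. Creb3l1, an ATF6-like membrane factor, stood at -0.92 ± 0.30 without passing (adjusted p = 0.0859). Over 8 libraries 0 of 9 passed, 7 were negative and the median was -0.58, with Srebf2 at -0.82 ± 0.23.

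**Figure D5:**
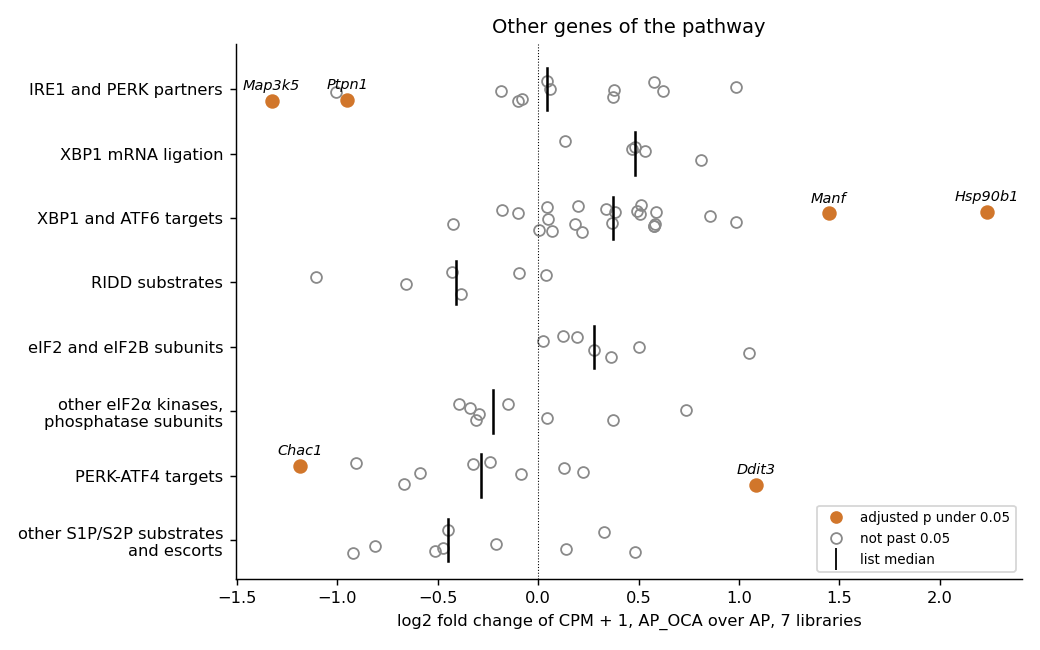
Log2 fold change of CPM plus 1, AP_OCA over AP, in the 7 libraries for each tested gene of 8 lists around the sensors (vertical position within a list is arbitrary); filled points have an adjusted p under 0.05 and black bars are list medians. Manf, Hsp90b1 and Ddit3 lie to the right and Map3k5, Ptpn1 and Chac1 to the left.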

How the data were processed

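RNA was measured by sequencing in 8 samples; libraries were made with a SMARTER mRNA kit per the labels' protocols, and the build was mm10 per the submitters' processing notes. The aligner, counter and annotation are not given in the sources used here. The deposited values are log2 values: the lowest was -6.64 (log2 of 0.01) and the highest 20.57 in every column, and all 8 columns were matched to samples by title. The plan assumed linear or count values, so the log2 values were returned to a linear scale, 0.01 was subtracted, and the values of each library were rescaled to sum to 1000000 (CPM). Genes whose mean reached 1 CPM entered the test on log2 of CPM plus a pseudocount of 1 with limma 3.58.1 in R 4.3.3 (variance trend, robust moderation), checked on simulated data. Fold changes on this scale understate changes of low genes. All 8 members passed this filter in both fits.

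Members, gene lists and the split into 7 and 8 libraries were chosen with earlier results of these data known. Named are all members, genes of a pathway list that passed (or else the 1 of lowest p), and the 3 nearest profiles of Xbp1, Ern1, Atf6 and Eif2ak3. The plan was to name the 2 most abundant genes of each marker list set beside a result. Both are named for the B and plasma cell, macrophage, stellate and endothelial lists. For the duct and islet lists 1 is named, and for the acinar, T cell and neutrophil lists 0. Other genes were named after their values were seen (Hspa5, Dnajb9, Edem1, Dnajc3, Sel1l, Dnajb11, Bloc1s1, Ern2, Atf4, Creb3l1, Pdgfrb, Sparc, Cd3e and Cd3g). Transcript lengths, GC content (99.5% of tested genes) and positions came from GENCODE M21. Alternatives were 2 other normalisations, the deposited log2 scale, pseudocounts of 0.1 and 5, no filter and a 5 CPM filter, no variance trend, a replicate block, library weights, removal of length and GC trends (mgcv 1.9.3), the longest transcript, and each library left out.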

Additional observations from a re-analysis of the deposited data

Results flagged for a closer look

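Among 16 sets of 4 values (8 members in AP and in AP_OCA), 3 had a library whose distance from its nearest neighbour took up more of the whole range, on the log2 scale, than Dixon's 95% critical value; chance gives about 1 in 20 such sets. Ern1 in AP_OCA replicate 2 was low, at 6.18 CPM against 50.0 to 69.6 in the other AP_OCA libraries. Mbtps2 in AP_OCA replicate 2 was high, at 3.04 CPM against 2.38 to 2.41, since the other 3 nearly coincide. Mbtps1 in AP replicate 4 was low, at 31.2 CPM against 34.1 to 34.6, a small difference that stands out only because the other 3 lie so close.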

How the results depend on the processing

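In the 7 libraries the 266 genes called became 156 with a pseudocount of 0.1, 113 on the deposited log2 scale, 0 without a filter on low values, 14 without a variance trend, 1675 with library weights and 170 with length and GC trends removed; leaving out 1 more library gave 7 (AP replicate 3) to 973 (AP_OCA replicate 1). The count of members called, 1, became 0 without a filter, without a variance trend and with length and GC trends removed, and was 0 to 1 with a library left out. Over 8 libraries library weights gave 1052 genes and 1 member, and leaving out a library gave 0 to 266 genes and 0 to 1 members, all from the fit without AP_OCA replicate 2. Deviations of same-numbered samples from their group means correlated at -0.07 to 0.05 in the 7 libraries and at -0.17 to 0.12 in the 8. So few samples cannot show whether the numbers mark pairs, and the labels do not say. A replicate block gave 559 genes and 1 member with 7 libraries, 0 and 0 with 8. Atf6 changed direction: with library weights it was -0.0016 with 7 libraries and 0.0091 with 8, and with a library left out -0.030 to 0.23 and -0.40 to 0.13. Ptpn1 was 0.081 over 8 libraries with length and GC trends removed. Of 143 alternative values of members with 7 libraries, 132 kept direction and call, 8 lost the call and 3 turned; with 8 libraries 147 of 151 kept both. The cause was not tested. Read depth per library is unknown, and intervals from counts could not be given.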
